A study of Mus musculus with 8 samples.

Results

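The genes described here carry out antigen presentation by the major histocompatibility complex (MHC): the class I and class II molecules, the machinery that cuts, transports and loads their peptides, and the transactivators of both sets. A list of 34 genes was taken by name, and a gene was measured where a probe set of the array listed it as the only symbol, with the probe set of highest mean over all arrays used for each gene. By that rule 29 of the 34 genes were measured, of 19937 genes with a probe set of their own, and all 29 passed the study's expression limit. H2-K1, H2-D1, H2-T23, H2-DMb1 and H2-DMb2 were covered only by probe sets that list several genes, so their values stand for more than 1 gene and are given as such.

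Total RNA was measured in 8 whole tumors, 1 array each. They had grown for 18 days in the fourth mammary gland of BALB/c mice, an immunocompetent host, after injection of 4T1, a single mouse mammary carcinoma line from the same strain. The gland of 4 tumors had received a local X-ray dose of 20 Gy before injection (preirradiated), and that of 4 more was left without it (nonirradiated). The labels state no age, and leave unsaid if the tumors are from separate mice, so the p-values measure the spread between these tumors. The comparison asks how tumor tissue in an irradiated bed differs from tumor tissue in an untouched one, a model of local relapse after radiotherapy. In whole tumors, fewer cells of a type and less RNA per cell cannot be told apart.

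Class I molecules stand on nearly all nucleated cells and show peptides from the cytosol to cytotoxic T cells. The immunoproteasome cuts those peptides, TAP pumps them into the endoplasmic reticulum, and tapasin and its partners load them onto a heavy chain paired with beta-2-microglobulin. Class II molecules are made mainly by dendritic cells, macrophages and B cells, are held by the invariant chain Cd74 until they reach endolysosomes, exchange their peptide there with help of H2-DM, and show it to helper T cells. Class II genes are switched on by CIITA and class I genes by NLRC5, which are recruited by factors bound to X and Y boxes ahead of these genes. Interferon gamma induces both sets, also in tumor cells.

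The promoter sequences of members are shown first, since both sets of genes share these boxes and their values are described together below. They come from the RefSeq table of build GRCm38.p6, which held 27 of the 34 genes, and they are from the reference strain, whose MHC haplotype differs from that of BALB/c. Capitals mark matches, on either strand, to the letters AGNAAC (X box core), TGACG (X2 box core, which follows the X box) and GATTGG (Y box core). In B2m the marked X letters lie after the X2 and Y letters and do not show this order. These letters were chosen with the sequences in view. Each line below runs 5′ to 3′ on the strand of the gene and ends 1 base before the start of transcription. H2-Aa (chr17:34287824-34287943, minus strand) and H2-Eb1 (chr17:34305747-34305866, plus strand) encode classical class II chains, H2-Ob (chr17:34238785-34238904, plus strand) a chain of the exchange inhibitor H2-O, and B2m (chr2:122147567-122147686, plus strand) the light chain of class I. The last line is the stretch between the starts of Psmb9 and Tap1 (chr17:34187331-34187555, plus strand), which are read in opposite directions from it.
H2-Aa: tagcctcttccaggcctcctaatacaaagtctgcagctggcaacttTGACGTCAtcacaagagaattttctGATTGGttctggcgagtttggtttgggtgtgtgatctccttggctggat
H2-Eb1: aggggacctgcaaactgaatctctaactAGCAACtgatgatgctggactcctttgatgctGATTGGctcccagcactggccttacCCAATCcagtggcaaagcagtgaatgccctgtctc
H2-Ob: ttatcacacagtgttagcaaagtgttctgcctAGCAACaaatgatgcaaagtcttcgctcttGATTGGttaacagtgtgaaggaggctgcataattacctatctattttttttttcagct
B2m: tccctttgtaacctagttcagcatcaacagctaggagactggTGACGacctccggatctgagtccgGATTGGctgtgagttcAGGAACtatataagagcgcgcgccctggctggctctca
Psmb9-Tap1: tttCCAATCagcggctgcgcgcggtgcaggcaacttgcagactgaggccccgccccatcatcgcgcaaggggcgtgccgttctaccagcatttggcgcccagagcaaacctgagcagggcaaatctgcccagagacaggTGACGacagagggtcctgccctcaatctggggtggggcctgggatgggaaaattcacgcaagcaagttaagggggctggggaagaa

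The Y box letters lay within the 250 bases ahead of a listed start in 8 of 8 class II genes with a promoter and in 6 of 13 class I genes, and in 14.6% of all 32851 promoter windows. The X2 letters were in 7 of the 13 class I genes and 1 of the 8 class II genes, and in 17.8% of all windows. The X letters were in 5 of the 8 class II and 3 of the 13 class I genes, and in 42.3% of all windows. Psmb9 and Tap1 share their stretch, so the X2 and Y matches in it are counted for both genes. A gene counted with a match at any of its listed starts, while the shares are per window. The X2 count depends on the letters chosen, since H2-Eb1 and H2-Ob carry tgatg shortly after their X letters, which TGACG does not match. A match of such short letters is a description of the sequence and not a binding site. In the order of RefSeq genes on chromosome 17, Psmb9, Tap1, Psmb8 and Tap2 lie side by side between H2-DMb1 and H2-Ob, so part of the class I machinery sits among class II genes.

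No member passed the correction for multiple testing, and neither did any other probe set: with limma, 0 of 34738 probe sets (0.0%) had a Benjamini-Hochberg adjusted p under 0.05. The study's own filter asks for a log2 change of 0.4 or more and, unadjusted, p no higher than 0.05. It was passed by 0 of 29 members, against 0.487% of 19937 genes (0.14% lower and 0.346% higher). At an unadjusted p under 0.05, 2 of 29 members were lower in preirradiated tumors (Ifi30 and H2-Ob) and 0 were higher, against 3.27% and 2.39% of genes. In 2 of 29 (Ifi30 and Pdia3) all preirradiated values lay below all nonirradiated ones and in 0 above, against 1.95% and 1.7% of genes. The lowest adjusted p of a member was 0.763, for Ifi30.

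The direction was nevertheless nearly uniform. In preirradiated tumors 26 of 29 members had a lower mean, against 52.6% of all genes, and the median difference of the members was -0.16 on the log2 scale, against -0.0038 over all genes. This count rests in part on preirradiated tumor 1, without which 22 of 29 were lower and the median was -0.080. Preirradiated tumors 1 and 3 stood apart in skeletal muscle genes, and without both the count was 20 of 29. The members move together in these tumors, so the count is not 29 separate observations.

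**Figure D1:**
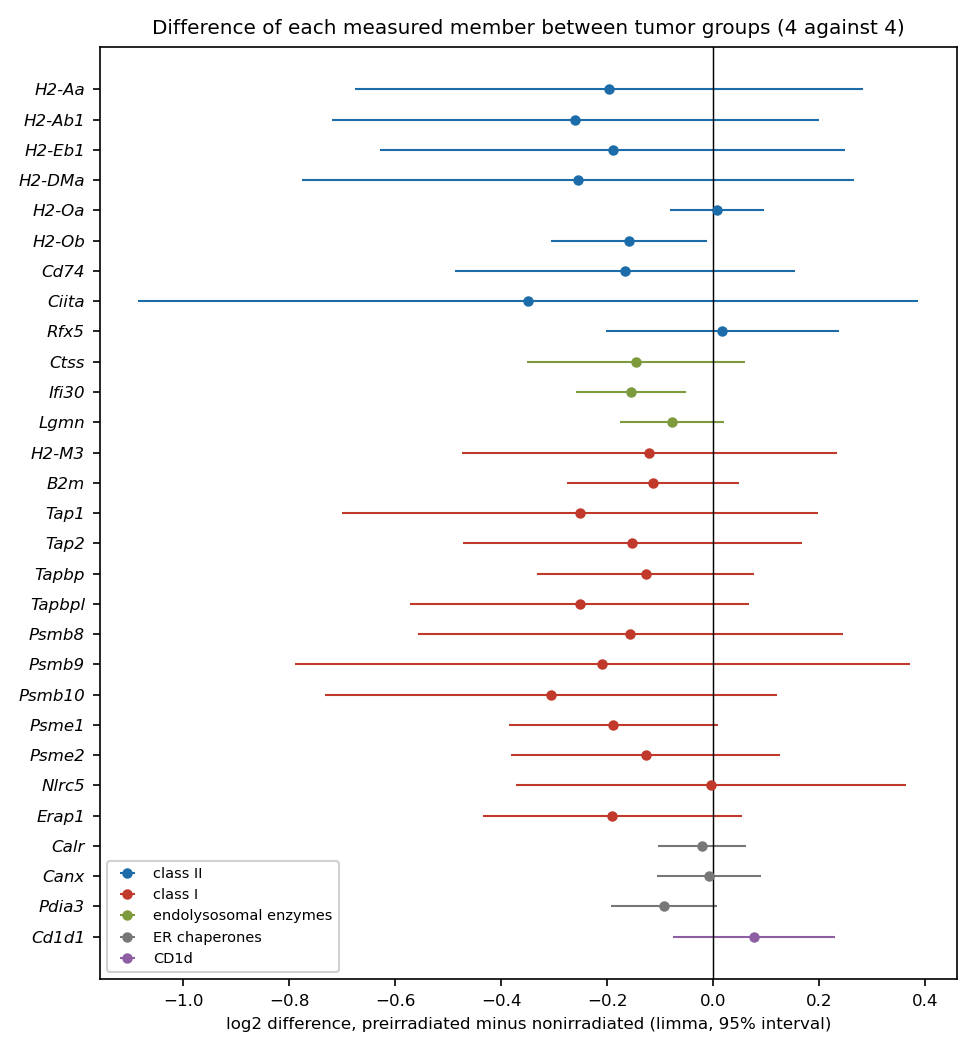
Log2 difference (preirradiated minus nonirradiated, 4 tumors each) of the 29 measured genes from limma, with lines for the 95% interval and colours for the role. Class II and class I points lie mostly between -0.35 and 0.0, most intervals cross 0, and the intervals of Ifi30 and H2-Ob lie below it.

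The classical class II chains did not differ beyond the spread between tumors. H2-Aa (probe set 10450154), the alpha chain of the A molecule, had log2 signals of 11.66, 11.50, 11.10 and 11.25 in nonirradiated tumors 1 to 4 and 10.87, 11.67, 11.37 and 10.81 in preirradiated tumors 1 to 4. The groups overlapped: preirradiated tumor 2 was the highest of all and preirradiated tumors 4 and 1 were the lowest. The difference was -0.20 (SE 0.21), with a 95% interval from -0.68 to 0.28 (limma adjusted p = 0.965).

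H2-Ab1 (probe set 10444291), the beta chain of the same molecule, was at 10.83, 10.53, 10.19 and 10.21 in nonirradiated and at 9.77, 10.51, 10.43 and 10.003 in preirradiated tumors. H2-Eb1 (probe set 10444298), the beta chain of the E molecule, was at 11.74, 11.72, 11.30 and 11.24 against 10.89, 11.68, 11.50 and 11.17. As in H2-Aa, preirradiated tumors 1 and 4 lay below every nonirradiated tumor. Preirradiated tumors 2 and 3 lay inside the nonirradiated range in both. Their differences were -0.26 (interval -0.72 to 0.20) and -0.19 (interval -0.63 to 0.25).

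Cd74 (probe set 10456005), the invariant chain, repeated this split. It was at 12.46, 12.26, 12.02 and 12.11 in nonirradiated and at 11.79, 12.33, 12.19 and 11.88 in preirradiated tumors, a difference of -0.17 (SE 0.14). Preirradiated tumors 1 and 4 again lay below all nonirradiated tumors.

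Ciita (probe set 10433507), the class II transactivator, had the widest range of the 9 class II genes. It was at 8.68, 8.36, 7.77 and 7.67 in nonirradiated and at 7.24, 8.57, 7.74 and 7.53 in preirradiated tumors, a range of 1.44 over the 8 tumors. Nonirradiated tumors 1 and 2 and preirradiated tumor 2 were high, and the other 5 tumors were low whichever bed they came from. The difference was -0.35 (SE 0.32, interval -1.08 to 0.39). Without preirradiated tumor 2 it was -0.62, which passed the study's filter.

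H2-DMa, a chain of the exchange catalyst H2-DM, differed by -0.26 (SE 0.23) and ranged over 1.01. The probe set listing both H2-DMb1 and H2-DMb2, for the partner chain, was at 10.50, 10.31, 9.92 and 9.82 against 9.35, 10.58, 10.22 and 9.73. Preirradiated tumor 1 was lowest there, as in H2-DMa and Ciita, and preirradiated tumor 2 was highest, and the difference was -0.17 (SE 0.27).

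The remaining class II members behaved differently from this block. H2-Ob (probe set 10444284), the beta chain of the inhibitor H2-O, which is typical of B cells, was at 5.83, 5.92, 5.68 and 5.87 in nonirradiated and at 5.67, 5.73, 5.72 and 5.55 in preirradiated tumors. It differed by -0.16 (SE 0.064, interval -0.31 to -0.013), with an unadjusted limma p of 0.0364 and an adjusted p of 0.840, and nonirradiated tumor 3 lay within the preirradiated range. Its level was below the array medians of 5.937 to 5.996. The unadjusted call ended without any 1 of 5 tumors, nonirradiated 1, 2 or 4 or preirradiated 1 or 4 (the difference was then between -0.16 and -0.12), without both preirradiated tumors 1 and 3 (-0.19) and with array weights (-0.12). H2-Oa, the alpha chain, was as low and differed by 0.0065 (SE 0.039). Rfx5, a subunit of the factor that binds the X box, differed by 0.017 (SE 0.096).

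**Figure D2:**
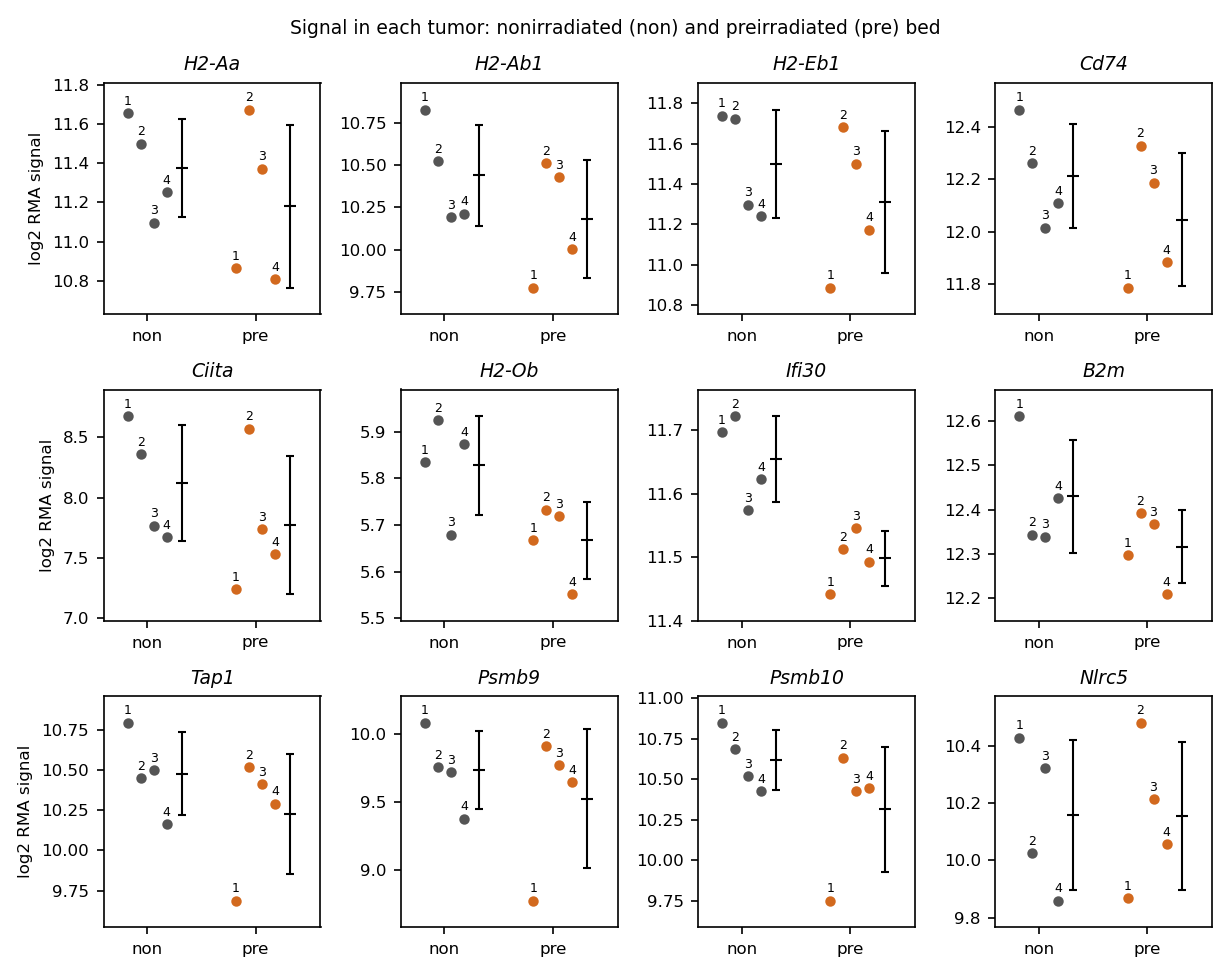
Log2 RMA signal of 12 members in each tumor (dots, numbered by tumor; left nonirradiated, right preirradiated), with mean and SD as bars; each panel has its own axis. In H2-Aa, H2-Ab1, H2-Eb1 and Cd74 preirradiated tumors 1 and 4 are low and 2 is high, in Tap1, Psmb9 and Psmb10 tumor 1 alone is low, and in Ifi30 the groups do not overlap.

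Among the endolysosomal enzymes that prepare class II peptides, 1 of 3 separated the groups. Ifi30 (probe set 10579347), the thiol reductase GILT that opens disulfide bonds of antigens, was at 11.70, 11.72, 11.57 and 11.62 in nonirradiated and at 11.44, 11.51, 11.55 and 11.49 in preirradiated tumors. All 4 preirradiated values were below all 4 nonirradiated values, as in 1.95% of all genes. The difference was small, -0.16 (SE 0.045, interval -0.26 to -0.052), or a signal 10.2% lower, with an unadjusted limma p of 0.00823 and an adjusted p of 0.763.

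The unadjusted p of Ifi30 stayed under 0.05 in every alternative run, with differences from -0.18 to -0.13 when each tumor was left out. Ctss, cathepsin S, which trims the invariant chain, differed by -0.15 (SE 0.090), and Lgmn, the asparaginyl endopeptidase legumain, by -0.078 (SE 0.043). The groups overlapped for both. These 3 enzymes are made in quantity by macrophages, and the macrophage list moved in the same direction (below).

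The class I heavy chains could be read only through shared probe sets. Those listing H2-K1 and H2-D1 together (10444780 and 10450075) differed by -0.087 (SE 0.056) and -0.093 (SE 0.067), and the first was at 12.26, 12.19, 12.14 and 12.21 in nonirradiated and at 11.98, 12.20, 12.19 and 12.09 in preirradiated tumors. Preirradiated tumors 1 and 4 lay below the nonirradiated tumors and the other 2 within them. The second was at 11.92, 11.84, 11.79 and 11.81 against 11.60, 11.88, 11.83 and 11.68, with the same 2 tumors lowest. The probe set listing H2-T23, the mouse Qa-1 chain, with a pseudogene was at 10.36, 10.30, 10.24 and 10.14 against 9.91, 10.37, 10.21 and 10.21 (probe set 10450682). Only preirradiated tumor 1 lay below the nonirradiated range there, and the difference was -0.083 (SE 0.095).

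B2m (probe set 10475414), the light chain, was at 12.61, 12.34, 12.34 and 12.43 in nonirradiated and at 12.30, 12.39, 12.37 and 12.21 in preirradiated tumors. Preirradiated tumors 2 and 3 lay within the nonirradiated range, and the difference was -0.11 (SE 0.071, interval -0.28 to 0.049). H2-M3 (probe set 10445119), a heavy chain that shows formylated peptides, was at 8.94, 8.73, 8.86 and 8.55 against 8.28, 9.03, 8.70 and 8.59. Preirradiated tumor 2 was its highest and preirradiated tumor 1 its lowest value, and the difference was -0.12 (SE 0.15).

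In Tap1, Psmb8 and Psmb9 fewer preirradiated tumors lay below the nonirradiated range than in the class II chains. This did not hold for all transport and immunoproteasome genes. In Psme1 preirradiated tumors 1, 3 and 4 lay below that range, and in Tapbp preirradiated tumors 1 and 3. Tap1 (probe set 10444244), a subunit of the peptide transporter, was at 10.80, 10.45, 10.50 and 10.17 in nonirradiated and at 9.69, 10.52, 10.41 and 10.29 in preirradiated tumors. Psmb9 (probe set 10450145), a catalytic subunit of the immunoproteasome, was at 10.08, 9.76, 9.72 and 9.38 against 8.77, 9.91, 9.77 and 9.64. Only preirradiated tumor 1 was below every nonirradiated tumor in both genes, and preirradiated tumor 4, low in class II, was not. They differed by -0.25 (SE 0.20) and -0.21 (SE 0.25), and without preirradiated tumor 1 by -0.071 and 0.041.

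Psmb8 (probe set 10444258), the second inducible catalytic subunit, was at 10.70, 10.48, 10.47 and 10.10 in nonirradiated and at 9.81, 10.45, 10.38 and 10.49 in preirradiated tumors. It too had preirradiated tumor 1 as its only value below the nonirradiated range, and its difference of -0.16 (SE 0.17) became 0.0013 without that tumor. Psmb10, the third such subunit, differed by -0.31 (SE 0.19), the largest difference among the 13 class I genes, and by -0.12 without that tumor. The activator subunits Psme1 and Psme2 differed by -0.19 (SE 0.086) and -0.13 (SE 0.11).

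Tap2, the other transporter subunit, differed by -0.15 (SE 0.14), Tapbp, tapasin, by -0.13 (SE 0.089), and the tapasin relative Tapbpl, a peptide editor, by -0.25 (SE 0.14). Erap1, which trims peptides in the endoplasmic reticulum, differed by -0.19 (SE 0.11). In none of these was the difference beyond the spread between tumors, and the limma adjusted p of the 13 class I genes was at least 0.856.

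Nlrc5, the class I transactivator, had a difference near 0, and whether it differed from those of its targets was not tested. It was at 10.43, 10.02, 10.32 and 9.86 in nonirradiated and at 9.87, 10.48, 10.21 and 10.06 in preirradiated tumors (probe set 10574102), and the groups covered nearly the same range. The difference was -0.0043 (SE 0.16, interval -0.37 to 0.36). The array holds 19 probe sets for Nlrc5, and their differences ran from -0.11 to 0.084 with a median of -0.014, none with an unadjusted p under 0.05. These probe sets were measured on the same RNA and are not replicates of the condition.

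The general chaperones of the endoplasmic reticulum varied little. Calr (calreticulin) and Canx (calnexin), which fold many glycoproteins beside class I, differed by -0.021 (SE 0.036) and -0.0086 (SE 0.043). Pdia3 (ERp57), the disulfide isomerase of the loading complex, was at 11.61, 11.48, 11.46 and 11.50 in nonirradiated and at 11.40, 11.40, 11.43 and 11.46 in preirradiated tumors. Its groups did not overlap, with preirradiated tumor 4 at 11.457 just under nonirradiated tumor 3, and the difference of -0.093 (SE 0.044) had an unadjusted limma p of 0.0635. Cd1d1, which shows lipids to natural killer T cells, differed by 0.077 (SE 0.067).

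Over all 8 tumors, class I and class II had nearly the same mean difference between the beds. The mean difference was -0.17 over the 9 class II genes and -0.17 over the 13 class I genes, and the first minus the second was -0.0034. When single tumors were left out, that contrast was lowest at -0.058, in the absence of nonirradiated tumor 3. It was highest at 0.076, with class II at -0.12 and class I at -0.19, in the absence of preirradiated tumor 4, so its sign depended on single tumors. All 13 class I and 7 of 9 class II genes had a lower mean in preirradiated tumors. Without preirradiated tumor 1 the means were -0.081 for class II and -0.046 for class I, with 9 of 13 class I genes lower, and without preirradiated tumors 1 and 3 they were -0.081 and -0.032. Without preirradiated tumor 2 they were -0.29 and -0.24, and without nonirradiated tumor 1 -0.091 and -0.097. Both classes therefore depended on single tumors. The contrast also varied with the genes counted. With a mean limit of 6, where H2-Oa and H2-Ob were not tested, it was -0.031, with class II at -0.20. The 3 classical class II chains averaged -0.22, and the 2 class I genes H2-M3 and B2m averaged -0.12. These are descriptions of the chosen genes with no test.

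Between single tumors the classes separated more. Taking each gene's deviation from its 8-tumor mean, class II genes averaged 0.33, 0.17, -0.078 and -0.082 in nonirradiated and -0.36, 0.27, 0.0049 and -0.26 in preirradiated tumors. Class I genes averaged 0.30, 0.074, 0.084 and -0.12, and -0.46, 0.12, 0.012 and -0.017. Nonirradiated tumor 1 was highest and preirradiated tumor 1 lowest in both classes. Preirradiated tumor 4 was low in class II and near the mean in class I, 0.24 apart, and nonirradiated tumor 3 was 0.16 apart in the same direction.

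**Figure D3:**
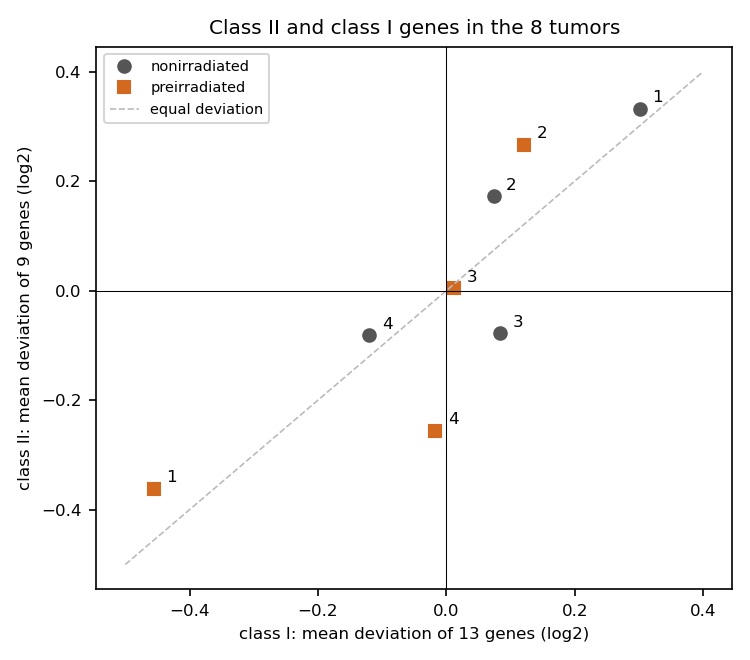
Mean deviation from the 8-tumor mean (log2) of the 13 class I genes (x axis) and the 9 class II genes (y axis), 1 point a tumor, with a dashed line where both are equal. Nonirradiated tumor 1 and preirradiated tumor 1 are the extremes of both axes, and preirradiated tumor 4 lies farthest below the line.

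The extremes were shared by many genes. Preirradiated tumor 1 had the lowest value in 11 of 13 class I and 5 of 9 class II genes, and nonirradiated tumor 1 the highest in 11 of 13 and 5 of 9. The spread between tumors of 1 group was also wider than usual: the pooled SD within groups had a median of 0.31 in class II and 0.23 in class I genes, against 0.083 over all genes and 0.093 over the 3786 genes with a mean of at least 9. ER chaperones had a median of 0.052.

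The regulators were compared directly by their difference within each array. Ciita minus Nlrc5 was -2.04 ± 0.41 in nonirradiated and -2.38 ± 0.32 in preirradiated tumors (SD, n = 4 each), a change of -0.34. An exact two-sided permutation test over the 70 assignments gave p = 0.229, where the smallest possible p is 0.0286. The groups overlapped, so unequal change of the transactivators was not shown.

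Across the 8 tumors the class II block followed Ciita closely. Correlations of Ciita with 8 class II genes and of Nlrc5 with 12 class I genes were computed as 1 family of 20, with exact two-sided permutation tests and Benjamini-Hochberg adjustment. Ciita correlated with H2-DMa at Pearson r = 0.984 (exact permutation p = 4.96e-05, adjusted 9.9e-04; Spearman rho = 0.976, exact p = 3.97e-04, adjusted 0.00794). Of 19936 other genes H2-DMa had the highest r with Ciita, and 50 genes reached 0.9.

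The other chains of the block were near. Pearson r was 0.938 for H2-Eb1, 0.936 for Cd74, 0.921 for H2-Ab1 and 0.916 for H2-Aa (exact permutation adjusted p = 0.00347, 0.00372, 0.00372 and 0.00711), with Spearman rho of 0.952, 0.929, 0.905 and 0.881 (exact permutation adjusted p = 0.0114, 0.0149, 0.0183 and 0.0207). They ranked 14, 15, 27 and 32 among all genes. Without the 2 tumors farthest from the median of Ciita (nonirradiated 1 and preirradiated 2), r was 0.964 for H2-DMa, 0.946 for H2-Eb1, 0.892 for H2-Ab1, 0.870 for Cd74 and 0.826 for H2-Aa. With deviations from the group means these r ran from 0.907 to 0.982, so the relation held with the group means removed. Without preirradiated tumors 1 and 3, 4 of the 8 pairs passed. Ciita had a gap between its 3 high and 5 low tumors, and with fewer than 6 tumors on either side the relation within each was not tested.

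H2-Ob (r = 0.557), Rfx5 (0.494) and H2-Oa (0.316) did not pass with Ciita, with exact permutation adjusted p of 0.179, 0.241 and 0.432. Their Spearman rho was 0.595, 0.429 and 0.452, with exact permutation adjusted p of 0.204, 0.332 and 0.315. Without the 2 farthest tumors r was 0.700, -0.242 and -0.0606. H2-Oa and H2-Ob lay below the array medians, and Rfx5 is a factor that acts beside CIITA. Whether signal level or role bears on these r was not tested.

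Class I genes followed Nlrc5 more loosely. Of 12 pairs 4 passed: H2-M3 (r = 0.914), Tap1 (0.805), Psmb9 (0.797) and Psme2 (0.748), with exact permutation adjusted p of 0.00427, 0.0122, 0.0122 and 0.0175. Spearman rho was 0.905, 0.881, 0.833 and 0.857 in that order (exact permutation adjusted p = 0.0183, 0.0207, 0.0342 and 0.0268), and r without the 2 farthest tumors was 0.820, 0.749, 0.708 and 0.656. B2m had the lowest r, 0.463 (exact permutation adjusted p = 0.275; rho = 0.286, adjusted 0.501), and without those tumors -0.0768. Without preirradiated tumors 1 and 3, 1 of the 12 pairs passed, and with deviations from the group means 8 did. H2-M3 ranked 13 among all genes for its r with Nlrc5, and the other 11 ranked from 173 to 2324.

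The transactivators did not sort the classes cleanly, as crossed pairs computed after these values were seen show. Ciita with the 13 class I genes, Nlrc5 among them, gave r from 0.636 to 0.853, and 7 of the 13 passed (exact permutation tests, adjusted over 21 crossed pairs). Tapbpl, Psmb10 and H2-M3 had r of 0.851, 0.837 and 0.853 with Ciita. Except H2-M3 and Psmb8, each class I gene paired with both regulators had a higher r with Ciita than with Nlrc5. Nlrc5 with 8 class II genes gave r from -0.0569 to 0.858, and 1 of the 8, Rfx5, passed. Ciita and Nlrc5 themselves had r = 0.713 (exact permutation adjusted p = 0.0746; rho = 0.738, adjusted 0.0875), and r = 0.277 without the 2 farthest tumors. Whether the 2 regulators differ in their r with a given gene was not tested.

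**Figure D4:**
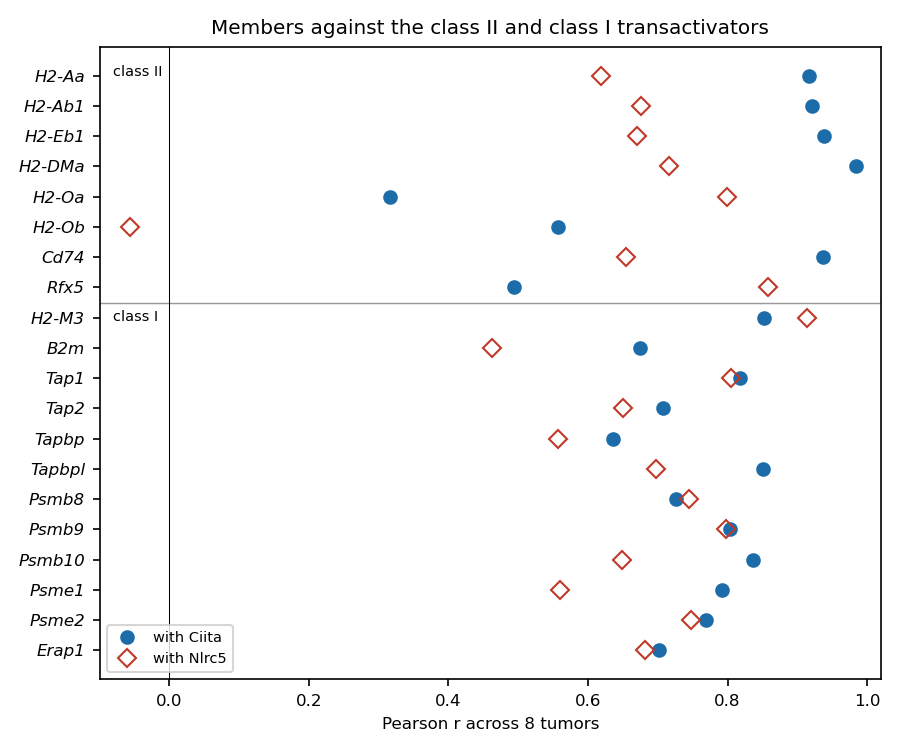
Pearson r across 8 tumors of each class II gene (upper part) and class I gene (lower part) with Ciita (filled circles) and with Nlrc5 (open diamonds). H2-Aa, H2-Ab1, H2-Eb1, H2-DMa and Cd74 have r above 0.9 with Ciita, while in class I genes the r with either regulator lie between 0.463 and 0.914.

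Other genes of the pathway, from lists made with earlier results known, moved little at the median. Of 17 further class II pathway genes (cofactors, cathepsins, costimulators and others) 13 were lower and 4 higher, with a median of -0.039, and 0 had an unadjusted limma p under 0.05, against 5.66% of all genes. Of 19 measured of 25 further class I pathway genes 11 were lower and 8 higher, with a median of -0.015, and again 0 passed. The constitutive proteasome subunits Psmb5, Psmb6 and Psmb7, whose places the immunoproteasome subunits take, differed by -0.015, -0.10 and 0.023 (named after their values were seen). H2-T24 and H2-Q4 had the largest differences of that class I list, -0.28 (SE 0.13) and -0.14 (SE 0.14). Preirradiated tumor 1 was lowest in both, which were likewise named after their values were seen.

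H2-Ea, the alpha chain that pairs with H2-Eb1, was at 12.09, 11.84, 11.52 and 11.62 in nonirradiated and at 11.23, 12.16, 11.84 and 11.35 in preirradiated tumors (also named after its values were seen). Preirradiated tumors 1 and 4 were lowest there too, and preirradiated tumor 2 was highest.

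Interferon genes had the same extreme tumors as both classes. All 16 measured genes of the interferon gamma list were lower on average, and 0 had an unadjusted p under 0.05. Their differences ran from -0.59 to -0.022, with a median of -0.14 and a mean of -0.24. The list mean was 9.68, 9.43, 9.52 and 9.30 in nonirradiated and 8.90, 9.46, 9.35 and 9.24 in preirradiated tumors, again highest in nonirradiated tumor 1 and lowest in preirradiated tumor 1. Ifng itself was between 5.58 and 6.06 in all tumors, near or below the array medians, and differed by -0.10 (limma adjusted p = 0.963).

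Of 12 measured type I interferon response genes all had a lower mean, with a median of -0.19, and 3 had an unadjusted p under 0.05: Oasl1 (-0.27), Irf7 (-0.25) and Ifit3 (-0.36), against 3.27% of genes in that direction. Oasl1, an antiviral sensor relative, was at 8.03, 7.93, 8.26 and 8.08 against 7.88, 7.83, 7.78 and 7.75, and its groups did not overlap. The limma adjusted p of these genes was at least 0.678. Ifit3, an antiviral effector, missed an unadjusted p of 0.05 without nonirradiated tumor 1 (-0.22) or 3 (-0.36), without preirradiated tumor 1 (-0.29) or 3 (-0.33) and without the last 2 together (-0.21). Irf7, a transcription factor of the response, was at 9.13, 8.90, 9.07 and 8.96 against 8.67, 8.92, 8.64 and 8.81. It overlapped through preirradiated tumor 2 and missed that p only without both preirradiated tumors 1 and 3 (-0.15), among the settings run.

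Markers of the cells that make class II molecules were set beside these values. The macrophage list (13 measured, 0 below the array median) had means from 10.25 to 10.39 in nonirradiated and from 10.10 to 10.21 in preirradiated tumors. All 13 genes were lower, 6 at an unadjusted p under 0.05 and 1 past the study's filter, against 3.27% and 0.14% of all genes. Preirradiated tumor 2, high in Ciita and class II chains, had the lowest macrophage mean. It lay farthest below the other preirradiated tumors in Folr2 (8.12, against 8.78 to 9.13) and Mrc1 (10.01, against 10.39 to 10.66). In C1qb (11.98) and C1qc (11.94) it was the highest preirradiated tumor, so that order did not hold for each marker. The dendritic cell list was lower in 12 of 14 genes, with means from 6.68 to 6.80 and from 6.60 to 6.70, and 8 of its 14 markers, Flt3, Xcr1 and Clec9a among them, were below the array median. The B cell list was lower in 9 of 10, with means from 5.45 to 5.85 and from 5.39 to 5.49, and 8 of its 10 markers lay below that median. Nonirradiated tumor 4 alone gave the 5.85, with 5.45 to 5.55 in the other nonirradiated tumors. Of the B cell genes 2 had an unadjusted p under 0.05 and 1 passed the study's filter, against 3.27% and 0.14% of all genes. In the dendritic cell list 0 did either. The part of these cells in the class II and enzyme values was not tested.

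Of the T and NK cell list 13 genes were measured and all were lower. Of these, 2 had an unadjusted p under 0.05 and 1 passed the study's filter, against 3.27% and 0.14% of genes. The list had means of 6.99, 6.43, 6.75 and 6.75 in nonirradiated and 6.03, 6.65, 6.65 and 6.26 in preirradiated tumors, with preirradiated tumors 1 and 4 lowest. The tumors matched their label in carcinoma markers, whose list mean was 8.95 to 9.41 in nonirradiated and 9.19 to 9.53 in preirradiated tumors, with Krt5 below the array median. Of 9 carcinoma markers 7 were higher. An unadjusted p under 0.05 was reached by 2 of these and the study's filter by 1, against 2.39% and 0.346% of genes. Fibroblast markers were higher in 9 of 10, with list means from 9.25 to 9.43 against 9.55 to 9.89. Of them 5 had an unadjusted p under 0.05 and 3 passed the study's filter, against 2.39% and 0.346% of genes. Skeletal muscle markers were at 9.19 and 10.58 in preirradiated tumors 1 and 3 and at 6.08 to 6.39 in the others. Adipocyte markers were highest in preirradiated tumor 1, at 8.07. All 12 muscle and all 9 adipocyte markers had a higher mean. An unadjusted p under 0.05 was reached by 0 muscle and 2 adipocyte markers, and these 2 passed the study's filter, against 2.39% and 0.346% of genes. Preirradiated tumor 1, the lowest in both classes, was thus also high in muscle, fat and fibroblast genes. Preirradiated tumor 3, the highest in muscle genes, was near the mean of both classes. The part of such tissue in the low values of tumor 1 was not tested.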

How the data were processed

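The authors deposited a log2 signal for each probe set of the Affymetrix Mouse Gene 1.0 ST array, computed with RMA (robust multi-array average) in the affy package of Bioconductor 2.4, per the series' design text; the submitters' processing notes name R 2.15.3. RMA corrects background, equalizes the arrays' distributions and summarises probes, so a change in total RNA cannot be seen. The number of arrays limits the precision. Of 34760 probe sets, 34738 had a mean of at least 4.0. Symbols come from the platform annotation, checked by Entrez ID against RefSeq (0 changed, 87 IDs not listed). Preirradiated minus nonirradiated was fitted to the 8 arrays in R 4.3.3 by lmFit and eBayes of limma 3.58.1 (two-sided), adjusted with Benjamini-Hochberg over all probe sets, and tested on simulated data. Permutation tests used Python 3.11.15. Members and lists were chosen with earlier results of these data known. Values per tumor are given for the classical class II chains, Cd74, Ciita, the class I heavy chains, B2m, Nlrc5, Tap1, Psmb8, Psmb9 and any member with an unadjusted p under 0.05 or groups without overlap; pathway genes are named by unadjusted p under 0.05, up to 4 a list. Alternatives covered the expression limit, variance model, normalization, array weights, a replicate block, the probe set per gene, the makeup of the classes and leaving out tumors.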

Additional observations from a re-analysis of the deposited data

Results flagged for a closer look

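In each group of 4 tumors, the highest or lowest value was compared with the group's range, for the 29 members and both groups. Of 58 groups, 5 had a tumor whose gap to the nearest other exceeded Dixon's critical value, where chance gives about 1 in 20. Preirradiated tumor 1 was far below the other preirradiated tumors in Tap2 (9.07), Tapbp (11.08), Psmb8 (9.81) and Erap1 (8.88), which are all class I genes. Preirradiated tumor 2 was above the others in Calr (11.83), where the whole range over 8 tumors was 0.11.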

How the results depend on the processing

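The number of members with an unadjusted p under 0.05 (2) was 1 with a mean limit of 6, where H2-Oa and H2-Ob were not tested, 1 with array weights, 1 with the replicate block, 1 without both preirradiated tumors 1 and 3 and 5 with arrays centred on their median, which moves the median of all probe sets to -0.035. Leaving out single tumors gave 1 to 4 (4 without nonirradiated tumor 3 or preirradiated tumor 2, 1 without nonirradiated tumor 2 or preirradiated tumor 1 or 4), and 0 to 1 past the study's filter, the 1 being Ciita without preirradiated tumor 2. Correlations past the adjusted threshold (9 of 20) fell to 5 without both tumors. The class means stayed below 0, from -0.29 to -0.081 (class II) and from -0.24 to -0.046 (class I) without single tumors. The labels do not state that replicate numbers pair the tumors. Deviations in tumors of the same number correlated at -0.29 to -0.075. Tumors of unlike number were not compared, so these values cannot decide on pairing. The block ended the call of H2-Ob and of Ifit3. Differences near 0 changed sign. So did some that were not near 0, those of the class I genes H2-M3 (-0.12), Psmb8 (-0.16), Psmb9 (-0.21) and Psme2 (-0.13). With further quantile normalization H2-Oa was -0.025, Nlrc5 0.016, Calr 0.0077 and Canx 0.025. With centred arrays H2-Oa was -0.027 and Rfx5 -0.017. With array weights H2-Oa was -0.0025, Rfx5 -0.023 and Canx 0.0043. The probe set of largest variance gave Nlrc5 0.084. Without both tumors H2-M3 was 0.039, Psmb8 0.032, Psmb9 0.043, Psme2 0.0020, Nlrc5 0.11 and Calr 0.0045. Without single tumors H2-Oa ran from -0.011 to 0.024, Rfx5 from -0.058 to 0.063, H2-M3 from -0.25 to 0.0036, Psmb8 from -0.27 to 0.0013, Psmb9 from -0.34 to 0.041, Nlrc5 from -0.11 to 0.091 and Canx from -0.028 to 0.011. Ciita minus Nlrc5 was not run with further quantile normalization. The cause of these changes was not tested.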

Other observations

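Among 19936 genes, the 5 with the highest Pearson r with Ciita over the 8 tumors were H2-DMa (0.984), Lair1 (0.971), A530040E14Rik (0.958), Vmn1r84 (0.956) and Nipa2 (0.950). The 5 highest for Nlrc5 were Adat1 (0.972), Fam133b (0.954), Nudcd1 (0.951), Htr7 (0.938) and Cgas (0.936). These genes were taken by rank after the values were seen, 1 of the 10 (H2-DMa) was a member, and the ranks carry no test.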
